A study of Mus musculus with 6 samples.

Results

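Genes of protein folding in the endoplasmic reticulum (ER) and of the response to its overload were described in whole-liver messenger RNA of mice. Their 36 members were taken by gene name, and all 36 were found in the deposited table of 54532 genes. They were listed as chaperones, as parts of the 3 arms of the stress response and as genes of degradation. The control group held 3 livers of mice labelled Notch1fl/fl, in which both Notch1 alleles carry loxP sites. The knockout group held 3 livers of hepatocyte Notch1 knockout mice, which lack the gene in hepatocytes. All 6 mice were untreated. The mice were made to study how hepatocyte Notch1 bears on thrombopoietin, a platelet growth factor made by the liver. The labels do not name the Cre driver, the strain, the sex or the age, and other liver cells keep Notch1.

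The ER of a hepatocyte folds the secreted plasma proteins, and chaperones, disulfide isomerases and glycan-binding lectins do this work. When unfolded protein builds up, 3 sensors in the ER membrane respond: IRE1 (gene Ern1) splices the Xbp1 message, PERK (gene Eif2ak3) slows translation and favours ATF4, and ATF6 is cleaved to a transcription factor. Their targets include the chaperones themselves and the machinery of ER-associated degradation, which returns misfolded proteins to the cytosol. Gene-level RNA measures neither Xbp1 splicing nor the translation of Atf4 nor the cleavage of ATF6.

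Promoter sequences are shown first because they tie many members to one known element. The ER stress element (ERSE) reads CCAAT, then 9 bases of any kind, then CCACG, and is known to be bound by NF-Y at the first part and by ATF6 at the second. RefSeq promoters (build GRCm38.p6, 250 bases before to 50 bases after a start) were matched by symbol for 30 of the 36 members. On either strand, 9 of these 30 genes held an exact ERSE, against 37 of 27025 genes (0.137%) and 39 of 32851 promoter windows (0.119%). The matches are shown with 8 bases on each side, CCAAT and CCACG in capitals. Where the element lies on the opposite strand, it reads CGTGG and then ATTGG.
Hspa5 (chr2:34772017-34772051, + strand): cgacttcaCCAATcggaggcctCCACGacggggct
Hsp90b1, far match (chr10:86705630-86705664, - strand): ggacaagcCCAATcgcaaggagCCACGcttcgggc
Hsp90b1, near match (chr10:86705525-86705559, - strand): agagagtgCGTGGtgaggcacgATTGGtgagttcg
Dnajc3 (chr14:118937819-118937853, + strand): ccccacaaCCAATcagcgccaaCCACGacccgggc
Creld2 (chr15:88819512-88819546, + strand): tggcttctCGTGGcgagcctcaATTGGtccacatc
Calr (chr8:84847067-84847101, - strand): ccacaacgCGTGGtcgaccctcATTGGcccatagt
Canx (chr11:50325792-50325826, - strand): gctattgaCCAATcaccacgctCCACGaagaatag
Pdia6 (chr12:17266483-17266517, + strand): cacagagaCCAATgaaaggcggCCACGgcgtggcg
Syvn1 (chr19:6046524-6046558, + strand): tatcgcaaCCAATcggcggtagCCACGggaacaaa
Derl3 (chr10:75893234-75893268, + strand): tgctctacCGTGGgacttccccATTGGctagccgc

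The whole 250 bases before the start of Hspa5 (chr2:34771840-34772089, + strand) are given because this gene encodes BiP, the central chaperone of the group; its 1 exact match is in capitals, and further CCAAT sequences lie upstream of it.
Hspa5: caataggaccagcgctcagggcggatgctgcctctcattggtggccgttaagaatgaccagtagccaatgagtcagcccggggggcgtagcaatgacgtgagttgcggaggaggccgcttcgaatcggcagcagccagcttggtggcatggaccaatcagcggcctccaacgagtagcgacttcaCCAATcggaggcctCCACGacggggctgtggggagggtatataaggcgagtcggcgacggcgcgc

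Other elements were rarer among the members. ERSE-II (ATTGG, 1 base, CCACG) was found in Herpud1 and Dnajb11, and in 0.0365% of all windows. The C/EBP-ATF element (TGATGNAA), to which ATF4 binds with a C/EBP partner, was found in Chac1, Asns, Herpud1 and Trib3, and in 3.97% of all windows. The unfolded protein response element (TGACGTGG) was found in 0 of the 30 members and in 0.676% of all windows. No 2 matches overlapped. Herpud1 is shown with ERSE-II (chr8:94386373-94386391, + strand) and Chac1 with the C/EBP-ATF element on the opposite strand (chr2:119351045-119351060, + strand), each in capitals.
Herpud1: gctgATTGGGCCACGttgg
Chac1: gccgTTGCATCActcc

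**Figure D1:**
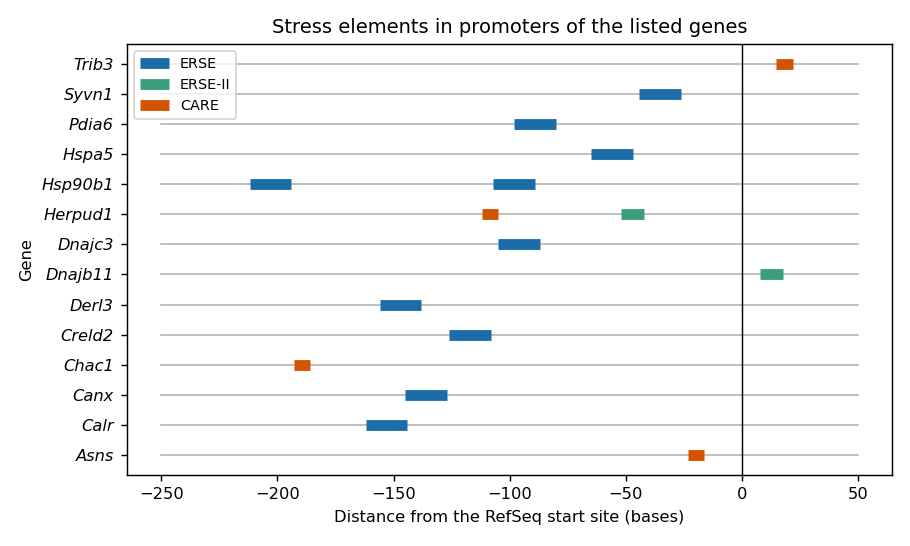
Positions of exact ERSE (blue), ERSE-II (green) and C/EBP-ATF (CARE, orange) matches on either strand in the RefSeq promoter windows of the 14 members that held one; the x axis is the distance in bases from the RefSeq start, the grey lines are the windows. ERSE matches lie upstream of the start in all 9 genes that hold one, with 2 matches in Hsp90b1.

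The libraries held 15612924 to 17511961 reads in genes, recovered from the deposited FPKM (fragments per kilobase of a gene, relative to library size as the authors set it), and all 36 members passed the filter of a mean of at least 0.5 FPKM. Notch1 itself measured 0.618, 0.965 and 0.854 FPKM in controls 1 to 3 and 0.301, 0.540 and 0.292 in knockouts 1 to 3, so all knockouts lay below all controls (limma adjusted p = 0.257). This gene-level value adds all cell types and all exons. Hepatocyte markers were the highest of the marker lists in every liver, with 7 of 7 found and a summed level of 46789 to 54539 FPKM in controls and 34454 to 44946 in knockouts. Alb was the largest part of each sum, and all markers but Alb overlapped between groups. Of the 7, 0 had an unadjusted limma p under 0.05. Knockout 2 stood apart in several measures: its markers of pancreatic acinar cells summed to 29.3 FPKM (8 of 8 above 0) against at most 2.75 in the other 5 livers, and its divisor in the authors' scaling was 1.14 times its reads, against 0.935 to 1.08 elsewhere. Mesothelial markers (5 of 5 found) summed to 5.30, 11.5 and 49.3 FPKM in controls and to 80.7, 135 and 101 in knockouts. Bile duct markers (5 of 5 found) summed to 12.8 to 16.1 in controls and 23.6 to 32.8 in knockouts. Of these, Krt7, Krt19 and Sox9 were higher in all knockouts than in all controls, and Krt19 is also counted in the mesothelial sum. Spp1 and Epcam overlapped between groups, so the separation of the sums does not hold for each bile duct marker. Plasma and B cell markers (8 of 8 found), from cells rich in ER, summed to 20.1 to 24.1 in controls and 15.7 to 20.4 in knockouts. Kupffer cell markers summed to 205 to 263 in controls and 187 to 266 in knockouts, and neutrophil markers to 5.60 to 16.0 and 10.6 to 36.03. The neutrophil sums came mostly from S100a8 and S100a9, while Ly6g and Mpo were at most 0.105 FPKM in any liver. Endothelial and stellate markers overlapped between groups, at 47.1 to 59.5 and 59.7 to 83.2 over all livers. In bulk liver, fewer cells of a type and less RNA per cell cannot be told apart. The part of these cells in the values below was not tested.

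Between the groups, 0 of the 36 members passed the threshold (limma on log2(FPKM + 1), Benjamini-Hochberg adjusted p under 0.05 over 12022 genes; limma voom on the recovered reads also called 0). Over all genes 0.025% passed, and 0 genes passed with the replicate number as a block. At an unadjusted p under 0.05 there were 4 members (11.1%), against 13.9% of all genes: Ern1, Chac1 and Creb3l3 were lower in the knockouts (8.33% of members, against 7.06% of all genes) and Ddit3 was higher (2.78%, against 6.83%). The groups did not overlap in 5 members (13.9%), against 19.8% of all genes; 4 of these, with Derl2 as the additional one, were lower (11.1% of members, against 10.6% of all genes) and 1 was higher (2.78%, against 9.2%). These shares lay near or below those of all genes. Overlap was judged throughout on the values as deposited and was not counted again under other scalings. Mean log2 values were higher in the knockouts in 21 members (58.3%, against 48.1% of all genes) and lower in 15, with a median log2 fold change of 0.015, against -0.0081 over all genes tested.

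**Figure D2:**
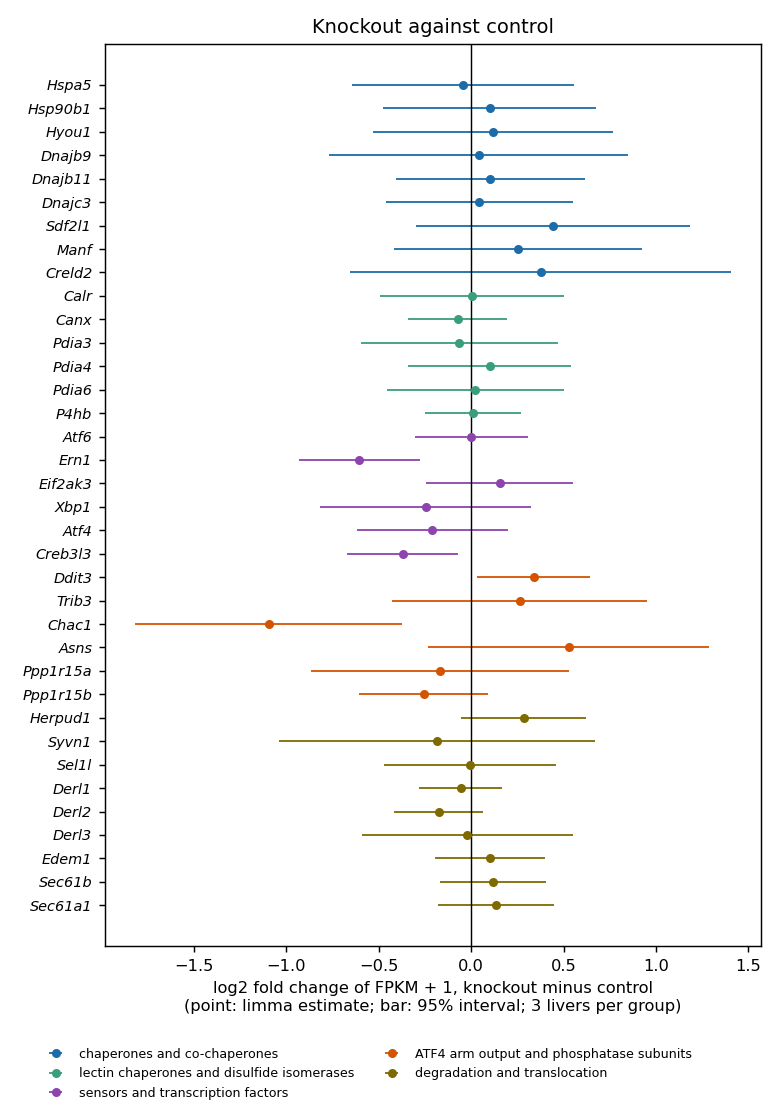
Log2 fold change of FPKM + 1, knockout minus control, for the 36 members (points, limma estimates; bars, 95% intervals; 3 livers per group; colours, role groups). The intervals of Ern1, Chac1 and Creb3l3 lie below 0 and that of Ddit3 above 0; the other 32 include 0.

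The knockout livers differed among themselves more than the controls did. The SD of log2 values was larger in the knockouts in 31 of 36 members (86.1%), against 55.9% of all genes. The median SD of a member was 0.14 in controls and 0.39 in knockouts, while over all genes it was 0.13 and 0.15. Knockout 2 was the lowest of the 6 livers in 28 members (77.8%), against 24.3% of all genes. Knockout 3 was the highest in 16 members (44.4%), against 15.1% of all genes. In 10 members (27.8%, against 2.07% of all genes) knockouts 1 and 3 lay above all controls while knockout 2 lay below all of them: Hsp90b1, Hyou1, Dnajb11, Dnajc3, Sdf2l1, Creld2, Pdia4, Sel1l, Edem1 and Sec61a1.

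These rankings and the share with a larger SD depend on the scaling of knockout 2. Scaled by total reads, knockout 2 was lowest in 15 members, against 9.97% of all genes, and with equal FPKM totals in 11, against 7.26%. Knockouts 1 and 3 above and knockout 2 below all controls then held for 6 members (1.33% of all genes) and for 3 (0.907%), in place of 10. Knockout 3 was highest in 20 (22.8% of all genes) and 24 (21.3%). The SD was larger in the knockouts in 29 members scaled by total reads (80.6%, against 63.4% of all genes). With equal FPKM totals this held for 28 (77.8%, against 66.7%). In that order, the median SD in knockouts was 0.32 and 0.31 for members, against 0.18 and 0.20 over all genes. Both scalings moved the median log2 fold change of all genes by 0.10 and 0.11. Relative to the median of all genes in the same liver, the median member stood at -0.38 in knockout 2 as deposited, and at -0.32 and -0.31 under these scalings. The corresponding values were 0.07, 0.07 and 0.058 in knockout 1 and 0.19, 0.23 and 0.23 in knockout 3.

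**Figure D3:**
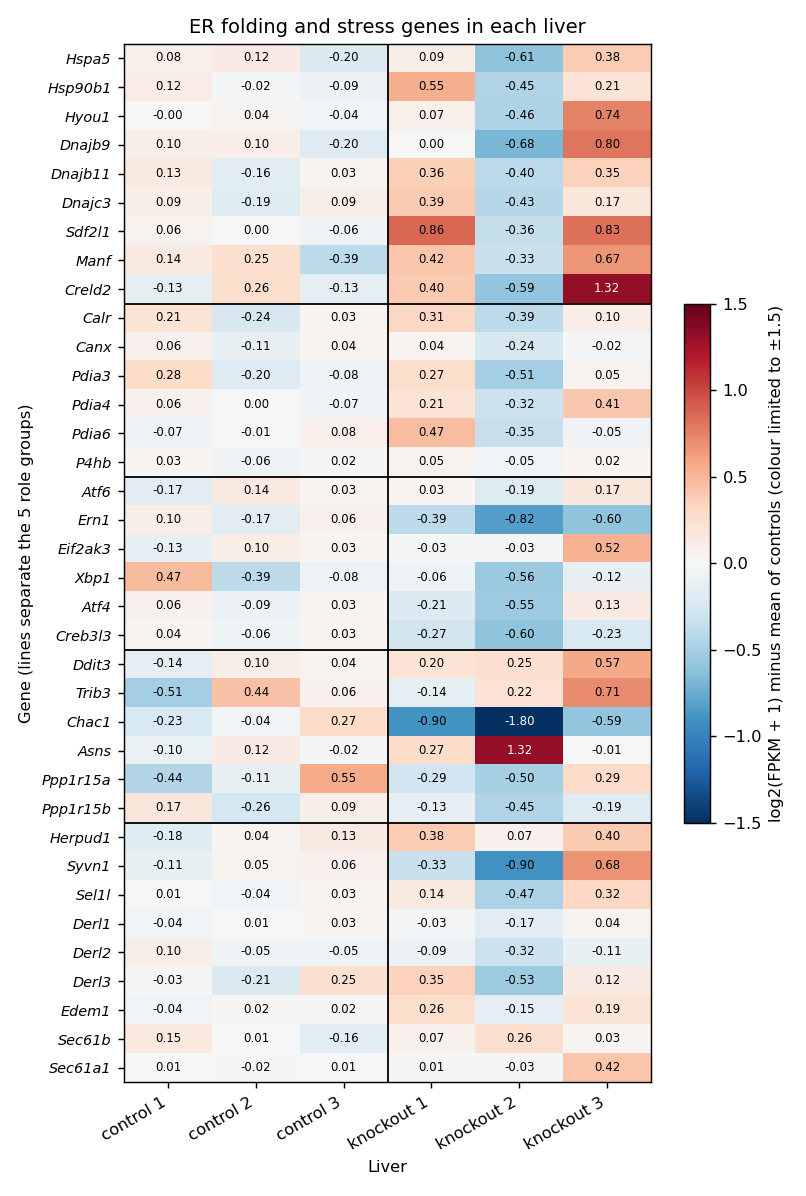
Log2(FPKM + 1) of each member in each liver minus the mean of the 3 controls, printed in each cell and coloured from blue (lower) to red (higher), with lines between the 5 role groups. Knockout 2 is the lowest liver in 28 of the 36 rows, and the 9 chaperone and co-chaperone genes at the top have medians of -0.45 in knockout 2 and 0.67 in knockout 3.

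Of the 5 role groups, the 9 chaperones and co-chaperones of the ER lumen had the medians furthest apart between knockouts 2 and 3. Hspa5 (ENSMUSG00000026864, chromosome 2, 34771970 to 34777547, GRCm38), which encodes BiP, measured 178, 183 and 146 FPKM in controls and 179, 109.9 and 219.8 in knockouts. Group means were 169 ± 20.2 and 169.7 ± 55.6 FPKM (SD, n = 3), with a log2 fold change of -0.04 (SE 0.25, 95% interval -0.65 to 0.56, limma adjusted p = 0.960). The means differed by less than the spread among livers, while knockout 3 held the highest and knockout 2 the lowest level of the 6 livers. Hsp90b1, the ER member of the Hsp90 family, measured 117, 106 and 101 FPKM in controls and 158, 78.4 and 124 in knockouts. Hyou1, which exchanges nucleotides on BiP, measured 15.1, 15.5 and 14.7 in controls, a range narrower than that of the knockouts at 15.9, 10.7 and 25.9.

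The J-domain proteins that steer BiP to its clients were likewise lowest in knockout 2. Dnajb9 measured 33.8, 33.8 and 27.3 FPKM in controls and 31.5, 19.3 and 55.5 in knockouts. Dnajb11 measured 25.0, 20.2 and 23.2 in control livers and 29.4, 17.0 and 29.2 in knockout livers. Dnajc3, which also inhibits PERK, measured 46.1, 37.8 and 46.1 in control livers and 56.9, 31.8 and 48.7 in knockout livers. In all 3 genes knockout 1 or 3 was highest, and for Dnajb9 knockout 1 lay among the controls.

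The highest log2 fold changes of the 9 were those of Sdf2l1 and Creld2. Sdf2l1, a partner of Dnajb11, measured 33.0, 31.8 and 30.5 FPKM in controls and 58.4, 24.6 and 57.1 in knockouts. Its log2 fold change was 0.44 (limma adjusted p = 0.581, with a 95% interval from -0.30 up to 1.19), and without knockout 2 it was 0.84 (SE 0.09, limma adjusted p = 0.0377). Sdf2l1 was then the 1 member that passed, while 29 of all 12022 genes passed, against 3 with all livers. Creld2, an ER protein of the disulfide isomerase type, measured 21.0, 27.9 and 21.0 in control livers and 30.7, 15.0 and 59.1 in knockout livers, which puts knockout 3 at 2.54 times the control mean and knockout 2 at 0.645 times. Manf, a luminal protein that can be secreted, measured 27.3, 29.6 and 18.6 in control livers and 33.4, 19.4 and 39.8 in knockout livers, and control 3 was lowest. For the 9 genes together, the median difference from the control mean in log2(FPKM + 1) was 0.39, -0.45 and 0.67 in knockouts 1 to 3.

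Lectin chaperones and disulfide isomerases differed less, and knockout 2 was lowest in 5 of these 6 genes. Calr, which encodes calreticulin, measured 261, 191 and 231 FPKM in controls and 281, 172 and 241 in knockouts. Canx, its membrane-bound relative calnexin, measured 70.5, 62.5 and 69.4 in control livers and 69.2, 57.0 and 66.4 in knockout livers. In both genes the groups overlapped. Pdia3, the isomerase that works with these lectins, measured 168, 121 and 131 in control livers and 167, 97.3 and 143 in knockout livers. Pdia4, a further isomerase, measured 64.3, 61.7 and 58.6 against 71.2, 49.1 and 81.9, with knockouts 1 and 3 above all controls. Pdia6, an attenuator of IRE1, measured 69.7, 72.9 and 77.5 against 102, 57.3 and 70.6, and only knockout 1 was above the controls. The exception was P4hb, the most abundant member in FPKM, which measured 385, 361 and 382 in control livers and 389.6, 364 and 382 in knockout livers. Its log2 fold change was 0.01 with a 95% interval of -0.25 to 0.27.

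Of the 3 sensors, Ern1 differed most between genotypes. Ern1 (chromosome 11, 106394650 to 106487852), which encodes IRE1, measured 7.93, 6.39 and 7.67 FPKM in controls and 5.34, 3.69 and 4.47 in knockouts. All knockouts lay below all controls, and the control mean was 1.63 times that of the knockouts. The log2 fold change was -0.60 (SE 0.14, 95% interval -0.93 to -0.28), and it missed the threshold (adjusted p = 0.165 with limma; its 16 alternatives gave 0.103 to 0.409). Atf6 measured 5.15, 6.58 and 6.05 in control livers and 6.03, 5.04 and 6.75 in knockout livers, with a log2 fold change of 0.00 (95% interval -0.31 to 0.31). Eif2ak3, which encodes PERK, measured 2.31, 2.87 and 2.68 in control livers and 2.54, 2.53 and 4.18 in knockout livers, and only knockout 3 stood above the rest.

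Among the transcription factors of the response, Creb3l3 lay lower in every knockout by the values as deposited. Creb3l3 (chromosome 10, 81084324 to 81098874) encodes CREB-H, an ER-anchored factor of liver and gut that drives lipid and acute phase genes. It measured 97.0, 90.6 and 96.4 FPKM in controls and 78.1, 61.9 and 80.5 in knockouts, with no overlap as deposited (log2 fold change -0.37, SE 0.13, limma adjusted p = 0.279). Xbp1, the target of IRE1, measured 106, 58.0 and 72.3 in control livers and 73.2, 51.6 and 70.3 in knockout livers, and the spread among controls was the wider one. Atf4 measured 39.2, 35.1 and 38.2 in control livers and 32.2, 25.3 and 41.0 in knockout livers. As a group these 6 sensors and factors stood at a median of -0.55 in knockout 2, and at -0.14 and 0.005 in knockouts 1 and 3.

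**Figure D4:**
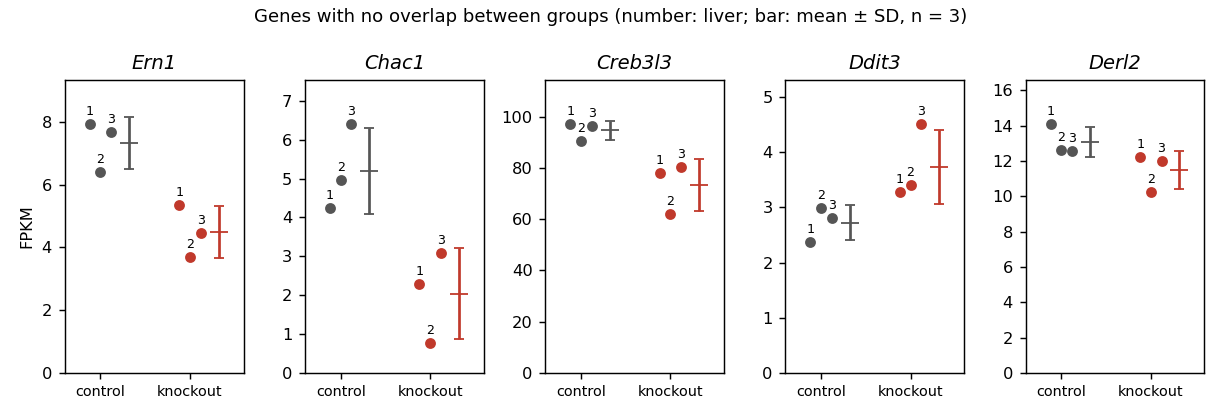
FPKM of the 5 members whose groups do not overlap, per liver (numbered points) with mean ± SD (bars, n = 3); each y axis starts at 0. As deposited, Ern1, Chac1, Creb3l3 and Derl2 lie lower in all 3 knockouts and Ddit3 higher, and knockout 2 is the lowest liver for the first 4.

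Of the 6 genes of the ATF4 output and its phosphatases, 0 passed, and 3 had higher and 3 lower means. Chac1 (chromosome 2, 119351229 to 119354381), which breaks down glutathione, measured 4.23, 4.96 and 6.40 FPKM in controls and 2.29, 0.762 and 3.07 in knockouts. The control mean was 2.55 times that of the knockouts (log2 fold change -1.10, SE 0.31, limma adjusted p = 0.209). Its libraries held 25 to 174 reads of the gene. Ddit3 (chromosome 10, 127290774 to 127296288), which encodes the pro-apoptotic factor CHOP, measured 2.37, 2.99 and 2.81 in control livers and 3.28, 3.41 and 4.51 in knockout livers, without overlap and at 61 to 132 reads. Its log2 fold change was 0.34 (SE 0.13, limma adjusted p = 0.320). A further row named Ddit3 (ENSMUSG00000116429, 105 bases long, within the span of the first) was at 0 in all 6 libraries and was not tested.

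Asns, asparagine synthetase, was set apart by knockout 2. It measured 0.707, 0.982 and 0.792 FPKM in controls and 1.20, 3.56 and 0.813 in knockouts, so knockout 2 stood at 4.30 times the control mean (195 reads, against 29 to 49 in the other livers). Pancreatic acinar markers were also highest in that liver, as given above, and their part in the value of Asns was not tested. Trib3, a pseudokinase that restrains the response, measured 1.07, 3.00 and 2.07 in control livers and 1.67, 2.42 and 3.80 in knockout livers, with a wide spread in both groups. The phosphatase subunits that end the translation block overlapped too. Ppp1r15a, the induced one, measured 2.77, 3.74 and 6.52 against 3.19, 2.62 and 5.26. Ppp1r15b, the constitutive one, measured 17.6, 12.8 and 16.7 against 14.2, 11.1 and 13.5. Each knockout was lower than the control of the same number, though the labels do not pair them.

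In ER-associated degradation, 0 genes passed as well. Syvn1, which encodes the ligase HRD1, measured 13.3, 15.0 and 15.1 FPKM in controls and 11.3, 7.25 and 23.7 in knockouts, with knockout 2 at 0.502 and knockout 3 at 1.64 times the control mean. Its partner Sel1l measured 12.4, 11.9 and 12.5 in control livers and 13.6, 8.55 and 15.5 in knockout livers. Edem1, a lectin that hands over glycoproteins, measured 26.3, 27.5 and 27.5 against 32.6, 24.3 and 31.1. In these 3 genes the controls lay close together while knockout 2 lay below them and knockout 3 above them.

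Herpud1, a scaffold of the ligase complex, measured 138, 161 and 171 FPKM in controls and 204, 164 and 205 in knockouts, and the groups overlapped through knockout 2. Its log2 fold change was 0.28 (limma adjusted p = 0.431, with a 95% interval from -0.05 up to 0.62). Derl2 measured 14.1, 12.6 and 12.6 in control livers and 12.2, 10.3 and 11.99 in knockout livers, without overlap (limma adjusted p = 0.497). Derl1, of the same membrane family, measured 36.1, 37.2 and 37.8 against 36.1, 32.7 and 38.1. Derl3, of the same family, rested on 10 to 39 reads (0.250 to 1.31 FPKM) and its groups overlapped. The translocon subunit Sec61b measured 83.2, 75.4 and 66.8 in control livers and 78.4, 89.6 and 76.6 in knockout livers, with knockout 2 highest. Sec61a1, the pore subunit, measured 13.6, 13.3 and 13.6 against 13.6, 13.2 and 18.4, and knockout 3 stood apart.

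Acute phase genes, which the liver secretes through the ER in inflammation, also lay higher in knockouts 1 and 3 than in knockout 2. Saa2, a serum amyloid, measured 12.2, 4.79 and 3.94 FPKM in controls and 813, 8.62 and 1537 in knockouts, and Saa1 measured 41.9, 15.2 and 12.8 against 1023, 16.2 and 1596. Hp, haptoglobin, measured 1452, 1246 and 1315 against 3721, 1292 and 3723. Saa3 measured 1.15, 1.61 and 0.947 against 5.44, 3.90 and 6.24, with all knockouts above all controls (limma adjusted p = 0.0877). Knockouts 1 and 3 were far above the controls for Saa1, Saa2 and Hp, and knockout 2 lay near or among them. Over the 20 acute phase genes the median difference from the control mean in log2(FPKM + 1) was 1.29, -0.48 and 0.95 in knockouts 1 to 3. For the chaperones and co-chaperones it was 0.39, -0.45 and 0.67, and for all genes tested it lay within 0.02 of 0 in each knockout. The part of the acute phase in the values of the chaperones was not tested.

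**Figure D5:**
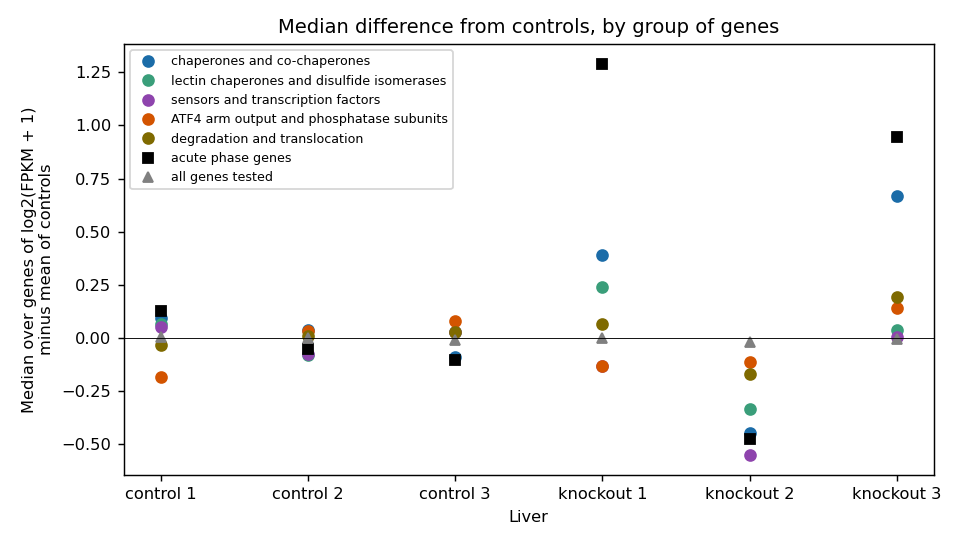
Median over genes of log2(FPKM + 1) minus the mean of the controls in each of the 6 livers, for the 5 role groups (circles), 20 acute phase genes (squares) and all 12022 genes tested (triangles). Chaperones and acute phase genes lie above the controls in knockouts 1 and 3 and below them in knockout 2.

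By the values as deposited, all 9 members with an ERSE were lowest in knockout 2. Of these 9 genes, 0 had an unadjusted limma p under 0.05, with a median log2 fold change of 0.0054. Over all members, the count lowest in knockout 2 was 28 as deposited and 26 under quantile normalization. It fell to 15 when scaled by total reads and to 11 with equal FPKM totals. The ranks given here for genes with and without an ERSE hold for the deposited scaling only. Of the other genes with an ERSE in their promoter, 7 were tested (Acacb, Acnat2, Alg12, Gm6566, Hnrnpa3, Pan2 and Xlr3a), and 1 of these 7, Hnrnpa3, was lowest in knockout 2. Of the 21 members whose promoter held no exact ERSE, 14 were also lowest in that liver, Sdf2l1, Dnajb9 and Sel1l among them, and so were 5 of the 6 members with no promoter in the table, such as Hyou1.

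Further genes of the pathway, from lists written with earlier results of these data known, were read from the same fit, and 0 passed in any list (limma adjusted p of at least 0.105 outside the acute phase list). Of 27 tested genes of oxidative folding and BiP co-chaperones, 9 had higher and 18 lower means, with a median log2 fold change of -0.08. Rcn1, a calcium-binding ER protein, measured 4.02, 4.04 and 3.77 FPKM in controls and 5.29, 5.42 and 4.996 in knockouts. Creld1, a relative of Creld2, measured 12.3, 10.1 and 12.02 against 8.56, 8.64 and 9.19, and all knockouts were lower. Dnajc25, a J-domain protein, measured 5.03, 4.65 and 4.45 against 3.77, 3.49 and 3.73. In all 3 the groups did not overlap and knockout 2 did not stand apart from the other knockouts. In each list the genes shown had the smallest p, so such separation follows from that choice. Over these 27 genes the groups did not overlap in 3 higher and 2 lower ones, against 9.2% and 10.6% of all genes. As deposited, knockout 2 was lowest in 14 of the 27, against 24.3% of all genes. In the lists below it was lowest in 9 of 17, 10 of 22, 15 of 29, 7 of 21, 5 of 21 and 2 of 11 genes, in the order given.

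Of 17 tested genes of the calnexin cycle and glycan addition, 9 were higher and 8 lower. Ostc, a subunit of the enzyme that adds glycans, measured 25.4, 27.6 and 20.7 FPKM in controls and 35.1, 27.3 and 35.9 in knockouts. Prkcsh, a subunit of glucosidase II, measured 20.6, 18.9 and 20.3 against 18.0, 17.5 and 18.1, without overlap. Mogs, glucosidase I, measured 8.43, 8.51 and 9.68 against 9.48, 9.68 and 11.5, higher on average and with overlap. Of 22 tested translocon and signal peptidase genes, 15 were higher and 7 lower. Sec62 measured 37.0, 33.3 and 32.9 against 32.5, 24.4 and 26.6, without overlap. Its partner Sec63 measured 18.9, 14.2 and 16.5 against 15.6, 9.06 and 14.3. Spcs2, a signal peptidase subunit, measured 23.6, 22.7 and 19.3 against 27.8, 20.3 and 28.0. Both overlapped, with knockout 2 the lowest knockout.

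Of 29 tested genes of ER-associated degradation, 9 were higher and 20 lower, with a median log2 fold change of -0.06. Rnf103, a ubiquitin ligase, measured 14.7, 11.7 and 14.3 FPKM in controls and 12.1, 9.67 and 9.51 in knockouts. Ube2g2, the conjugating enzyme that works with such ligases, measured 12.2, 13.9 and 13.3 against 15.1, 15.4 and 17.0. Selenok, an ER selenoprotein, measured 55.6, 48.3 and 49.0 against 59.8, 57.9 and 59.8. Ube2g2 and Selenok did not overlap between groups. Over the 29 genes the groups did not overlap in 3 higher and 2 lower ones, against 9.2% and 10.6% of all genes.

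Of 21 tested stress sensors and bZIP regulators, 12 were higher and 9 lower. Tmbim6, an ER membrane protein that restrains IRE1, measured 270.0, 267 and 267 FPKM in controls and 227, 215 and 218 in knockouts, a small difference with little spread in either group (log2 fold change -0.28, SE 0.10, limma adjusted p = 0.287). Creb3l1 measured 0.743, 0.648 and 1.64 against 1.57, 2.11 and 2.18. Creb3l2 measured 2.45, 3.22 and 2.83 against 2.87, 3.86 and 4.80. Both are relatives of Creb3l3, and their means were higher in the knockouts, with overlap between groups.

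Of 21 tested targets of ATF4 and the integrated stress response, 11 were higher and 10 lower. Nupr1, a stress-induced nuclear protein, measured 0.689, 0.745 and 1.32 FPKM in controls and 1.41, 2.86 and 2.40 in knockouts. Ddit4, an inhibitor of mTORC1, measured 3.38, 6.76 and 8.98 against 6.55, 14.6 and 15.3. Jdp2, a bZIP repressor, measured 1.52, 1.19 and 1.68 against 1.93, 2.21 and 1.72. Nupr1 and Jdp2 did not overlap, and knockout 2 was above the controls in all 3 genes. Over the 21 genes the groups did not overlap in 3 higher and 1 lower one, against 9.2% and 10.6% of all genes.

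Of 11 listed targets of CREB-H, 4 were higher and 7 lower, while 48.1% of all genes were higher. Their median log2 fold change was -0.07, against -0.0081 over all genes tested. Over the 11 genes the groups did not overlap in 0 higher and 2 lower ones, against 9.2% and 10.6% of all genes. Apoa5, which promotes the clearance of triglycerides, measured 340.1, 350 and 398 FPKM in controls and 227, 212 and 206 in knockouts, with no overlap (log2 fold change -0.75, SE 0.12, limma adjusted p = 0.105). G6pc, the last enzyme of glucose release, measured 173, 257 and 386 against 61.9, 63.2 and 167, also with no overlap. Hamp, which encodes hepcidin, overlapped (1555, 850.3 and 904 against 490.1, 1141 and 379.8). Apcs, which is also an acute phase gene, went the other way: knockouts 1 and 3 lay above all controls and knockout 2 below them. It passed only without knockout 2, and was then higher in the knockouts (limma adjusted p = 0.0425).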

How the data were processed

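RNA of 6 mouse livers was measured on libraries of poly-T purified messenger RNA, per the labels' protocols. HISAT2 2.0.5, featureCounts 1.5.0-p3 and the build GRCm38 stand in the submitters' processing notes. Strand is not given in the sources used here, so reads of overlapping antisense genes cannot be told apart. The authors deposited FPKM per gene. The columns named NC match no title and were assigned to the controls because only those were left, keeping their number (0 columns remained over). Reads were recovered from FPKM and gene length: 100% of values above 0 were whole reads within 0.1.

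A mean FPKM of 0.5 or more was required (12022 genes). Log2(FPKM + 1) was tested with limma 3.58.1 (eBayes with trend, two-sided, Benjamini-Hochberg threshold 0.05) in R 4.3.3, after a test on simulated data; the pseudocount understates changes of low genes. Members, lists and tests were chosen with earlier results of these data known. Named are the members, Notch1, Saa2, Hp and, of each of 8 lists, the 3 smallest p at 1 FPKM or more, since none passed. Apcs and the other genes with an ERSE were named after their values were seen.

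Deviations from group means correlated at 0.31, 0.16 and 0.10 (unrounded above 0.1) between same-numbered livers and at -0.25 to 0.11 between others. The labels give no pairing, and control 3 correlated at 0.11 with knockout 2 and at 0.10 with knockout 3. This check of the values does not settle whether the numbers pair the livers, so the block is only an alternative.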

Additional observations from a re-analysis of the deposited data

How the results depend on the processing

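The count of members past the threshold was 0 under each of 10 alternatives on all livers and ranged from 0 to 1 when single livers were left out, with Sdf2l1 passing without knockout 2. For further pathway genes of the lists other than the acute phase list the range was likewise 0 to 1 (Apcs). Named acute phase genes passed under some alternatives. Their smallest limma adjusted p over the alternatives was 0.010 for Saa2, 0.022 for Saa1, 0.026 for Hp and 0.026 for Saa3. The median log2 fold change of the members ranged from -0.088 (without knockout 3) to 0.21 (without knockout 2). The count of all genes, 3 as reported, was 1 with a pseudocount of 0.1, 0 with no filter, 5 with equal FPKM totals, 15 with voom on the recovered reads and 0 under the replicate block. With single livers left out it ranged from 0 (without control 2 or knockout 1) to 58 (without control 3), and it was 29 without knockout 2. The replicate block changed no other call at the adjusted threshold. It brought 1 further member, Ppp1r15b, to an unadjusted p under 0.05 (limma adjusted p = 0.254, against 0.488 without it). Of the named pathway genes it did so for Ddit4 (limma adjusted p = 0.0993, against 0.397), Sec63 (0.246, against 0.499) and Creb3l2 (0.299, against 0.431). The same held for the acute phase genes Saa1 (limma adjusted p = 0.251, against 0.360) and Hp (0.259, against 0.360). Ostc moved above an unadjusted p of 0.05 (limma adjusted p = 0.334, against 0.318). Knockout 2 was lowest in 11 members with equal FPKM totals and in 15 scaled by total reads, against 28 as deposited; voom, the scaling by total reads and these counts were chosen after seeing the data. Signs of small log2 fold changes turned under quantile normalization, equal FPKM totals and total reads, in that order, for Hspa5 (0.053, 0.10 and 0.097), Pdia3 (0.034, 0.085 and 0.078) and Canx (0.027, 0.074 and 0.0672). Under the last pair they turned for Derl1 (0.090 and 0.083), Sel1l (0.13 and 0.12) and Derl3 (0.020 and 0.024). Atf6 turned with pseudocounts of 0.1 and 0.5 (-0.000338 and -0.000140), quantile normalization (-0.00958) and voom (-0.00284). Leaving out single livers turned signs within these ranges: P4hb -0.019 to 0.038, Calr -0.15 to 0.20, Hspa5 -0.26 to 0.24, Pdia3 -0.23 to 0.16, Hsp90b1 -0.12 to 0.38, Pdia6 -0.20 to 0.21, Canx -0.13 to 0.0085, Pdia4 -0.055 to 0.31, Dnajc3 -0.13 to 0.28, Derl1 -0.10 to 0.0030, Dnajb9 -0.34 to 0.40, Creld2 -0.095 to 0.86, Dnajb11 -0.024 to 0.35, Hyou1 -0.19 to 0.41, Sec61a1 -0.0072 to 0.21, Syvn1 -0.62 to 0.17, Sel1l -0.17 to 0.23, Atf6 -0.083 to 0.097, Ppp1r15a -0.40 to 0.11, Eif2ak3 -0.030 to 0.25 and Derl3 -0.21 to 0.24. The cause was not tested. Ern1, Chac1, Creb3l3 and Ddit3 kept their signs under all 16 alternatives. The planned count test (edgeR) was not run, since the deposited unit is FPKM. Genes near 3 reads, such as Derl3 at 10 reads in knockout 2, are limited by depth.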
